A study of Bos taurus with 8 samples.

Results

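The change in transcript levels from the 4-cell to the 8-cell stage was followed in control bovine (Bos taurus) embryos produced in vitro. RNA sequencing libraries were made from pools of 5 embryos, with 2 libraries from control embryos at the 4-cell stage and 2 at the 8-cell stage. The oocytes came from slaughterhouse ovaries, with maturation and fertilisation in the dish, and the labels do not say whether the controls were injected or freed of cumulus cells. Beside them, 2 libraries per stage came from embryos edited in RPL12 (A148G), a gene of the large ribosomal subunit, by injecting zygotes with a guide RNA and PEmax. The latter is a prime editor, a Cas9 nickase joined to a reverse transcriptase; the titles call the same embryos base edited, and the share of edited alleles is not given. Stages follow the titles, although the source name of the 4-cell samples says oocytes. Of 16606 genes in the deposited table, 12209 had a mean of at least 1 CPM (reads per 1000000 reads) over the 4 control libraries and were compared. Just below that limit lay TRAPPC14 and SPATA9 (both a mean of 0.9997 CPM or less), and just above it SIGLEC10 (1.002 CPM) and BTD (1.004 CPM). No label says what separates the 2 libraries of a group, so p-values measure the spread between these libraries, which may be technical.

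An early embryo lives at first on RNA and protein stored in the oocyte. These maternal transcripts are deadenylated and degraded while the embryo's own genome is switched on. In cattle the main wave of this embryonic genome activation falls at about the 8-cell stage, so the 4-cell and the 8-cell embryo lie on either side of it.

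Between 33872184 and 35122409 reads were assigned to genes in the control libraries, so that 3 reads correspond to 0.0858 to 0.0899 CPM over all libraries. All 12 oocyte and embryo markers listed, GDF9, BMP15 and ZP3 among them, passed the filter. RPL12, the edited gene, stood at 159 and 174 CPM in 4-cell and 96.3 and 97.6 CPM in 8-cell controls (limma adjusted p = 0.0565), and in edited embryos at 27.5 and 33.6 CPM at the 4-cell and 14.1 and 11.9 CPM at the 8-cell stage. The 4 control libraries were split by stage and also lay apart within each stage. Along the first principal component, which held 69.1% of their variance, the 4-cell libraries lay at -52.8 and -19.5 and the 8-cell libraries at 52.2 and 20.2. The standard deviation over genes of the log2 difference between libraries was 0.54 and 0.53 within the stages. Across stages it was 0.96 between the first libraries and 0.58 between the second, which differed little more than libraries of the same stage.

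Transcripts that mark somatic cells of the follicle were also present. The 28 cumulus and granulosa cell markers listed summed to 1845 and 1460 CPM in 4-cell controls, to 660 and 969 CPM in 8-cell controls, and to 483 to 546 CPM in the edited libraries. Among them the steroid-making enzyme CYP11A1 stood at 227 and 201 CPM and then at 29.1 and 133 CPM, and HSD3B1 at 283 and 283 CPM and then at 40.7 and 176 CPM. The first 8-cell library was the lowest of the 4 in both. Of the 21 markers tested, SERPINE2 and FST (9.52%) were called lower and HAS2 (4.76%) higher, against 6.43% and 2.81% of all genes. LHCGR (at most 0.0572 CPM in control libraries), FOXL2 (at most 0.464 CPM) and CYP19A1 (at most 1.97 CPM), which define granulosa cells, were at or near 0. Stroma markers, mostly LUM, summed to 3184 and 6559 CPM against 3219 and 2696 CPM. Leukocyte markers summed to 29.3 to 40.05 CPM, epithelial markers to 12.3 to 28.2 CPM, and sperm and red blood cell markers to less than 4 CPM in each control library. Fewer cells of such a type and less RNA per cell cannot be told apart in pools.

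Genes were compared on log2(CPM + 1) with limma over all 8 libraries and called at a Benjamini-Hochberg adjusted p under 0.05. A log2 fold change, 8-cell minus 4-cell, is on that scale, where the change of weakly expressed genes comes out too small. Limits of 2-fold and 4-fold used to sort called genes are set on that scale too. In controls 1128 genes (9.24% of those tested) were called, 343 (2.81%) of them higher at the 8-cell stage and 785 (6.43%) lower. At least a 2-fold change was seen for 168 of the higher and 678 of the lower genes. The median log2 fold change was 0.99 among the higher, -1.32 among the lower and -0.01 among all genes. The split of the calls depended on the scaling, with 195 higher and 926 lower under median-of-ratios size factors, and 699 and 803 after quantile normalization.

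The calls rested on a few libraries. Without the first 4-cell library 13 genes were called, without the second 2111, without the first 8-cell library 28 and without the second 1247. With the mean level of the cumulus and granulosa markers as a covariate 14 were called. That level, a mean of log2(CPM + 1), was 3.63 and 3.68 in 4-cell and 2.84 and 3.43 in 8-cell controls. In edited libraries it was 2.11 to 2.65. It partly follows stage, so this fit estimates the stage change less precisely. Whether the marker level accounts for the calls was not tested. With edgeR's quasi-likelihood test, run on the recovered reads, 86 were called, and with limma on the 4 control libraries alone 173 were. DESeq2, also run on those reads, called 1629 genes. Without the filter on low values limma called no gene, although 3718 had an unadjusted p under 0.05 (3626 with the filter). The edgeR and DESeq2 counts are from fits without that limit of 1 CPM. For edgeR its own filter on low reads was applied, and DESeq2 was given every gene of the deposited table. In all, 76 genes (17 higher and 59 lower) were called by limma over 8 and over 4 libraries, by edgeR and by DESeq2. The counts of called genes in the gene groups below share this limit: without either first library or with the marker covariate, no member of a group other than the actin and interferon groups was called. Of the 107 called genes that are named in the text, the steep rises described next included, 11 were called without the first 4-cell library, 17 without the first 8-cell library and 7 with the marker covariate.

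**Figure D1:**
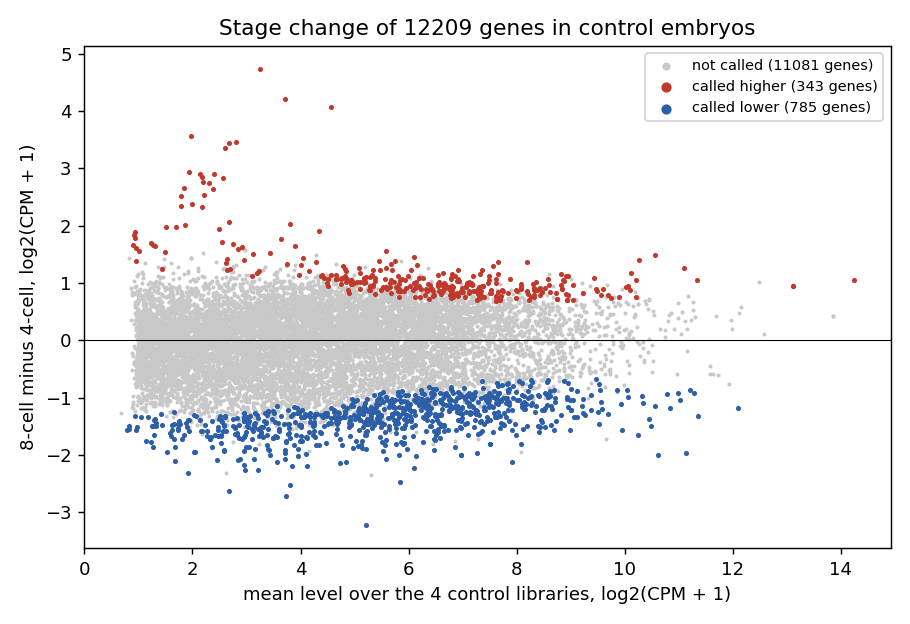
Stage change of each of the 12209 genes in controls (vertical axis, 8-cell minus 4-cell, log2(CPM + 1)) against its mean level over the 4 control libraries (horizontal axis). Red and blue points are the 343 genes called higher and the 785 called lower; a small set of weakly expressed genes lies above a change of 2, apart from the other genes called higher.

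On the log2(CPM + 1) scale the steepest rises were in a small set of genes that were nearly silent at the 4-cell stage. Called genes that rose at least 4-fold on this scale (a log2 fold change of 2 or more) numbered 24. Some called genes outside the set rose more than 4-fold in CPM, among them ZSCAN4 (7.0-fold, log2 fold change 1.97) and KLF17 (1.79). This set was chosen after the values were seen. The 24 genes together took 17.04 and 51.5 CPM in the 4-cell libraries and 470.5 and 489 CPM in the 8-cell libraries. No member was above 9.29 CPM in any 4-cell library. Of the 24, 23 carried only a LOC identifier, which RefSeq gives to genes with no approved symbol, although such genes were 4.02% of those tested. The remaining one was DUXA, a double homeobox gene of genome activation.

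LOC511494 had the smallest p-value of the table. It stood at 0.464 and 1.29 CPM in the 4-cell and at 42.1 and 54.5 CPM in the 8-cell libraries, a log2 change of 4.74 (SE 0.40, limma adjusted p = 3.58e-05). LOC100141128 stood at 0.435 and 5.48 CPM and then at 61.9 and 49.8 CPM (4.21, SE 0.54, limma adjusted p = 0.00161). LOC789309, the most abundant of the set, stood at 2.202 and 9.29 CPM and then at 106 and 86.1 CPM (4.07, SE 0.50, limma adjusted p = 0.00153). In each of these 3 genes the second 4-cell library was above the first, as in 22 of the 24. No 4-cell library reached the level of an 8-cell library in them, as for 28% of all genes tested.

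Part of the set lay together in the genome. In the RefSeq annotation of the ARS-UCD2.0 assembly, 12 of the 24 genes had another of the set within 20 genes, and 8 of these 12 formed 1 neighbourhood on 1 chromosome. The build behind the deposited table is not given, so only this order was used. In that neighbourhood LOC100299783 rose from 0 and 0.293 CPM to 8.12 and 18.7 CPM, a log2 fold change of 3.56. LOC132342413 rose by 3.44, LOC520023 by 2.91, LOC617709 by 2.90, LOC530538 by 2.66, LOC789138 by 2.64, LOC528132 by 2.54 and LOC525101 by 2.38 on the log2 scale. RefSeq lists 4 of the 24 (LOC517056, LOC619140, LOC538929 and LOC512775) as pseudogenes. How the authors' counting shared reads between near-identical copies is not given, so values of single members of such clusters are uncertain.

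**Figure D2:**
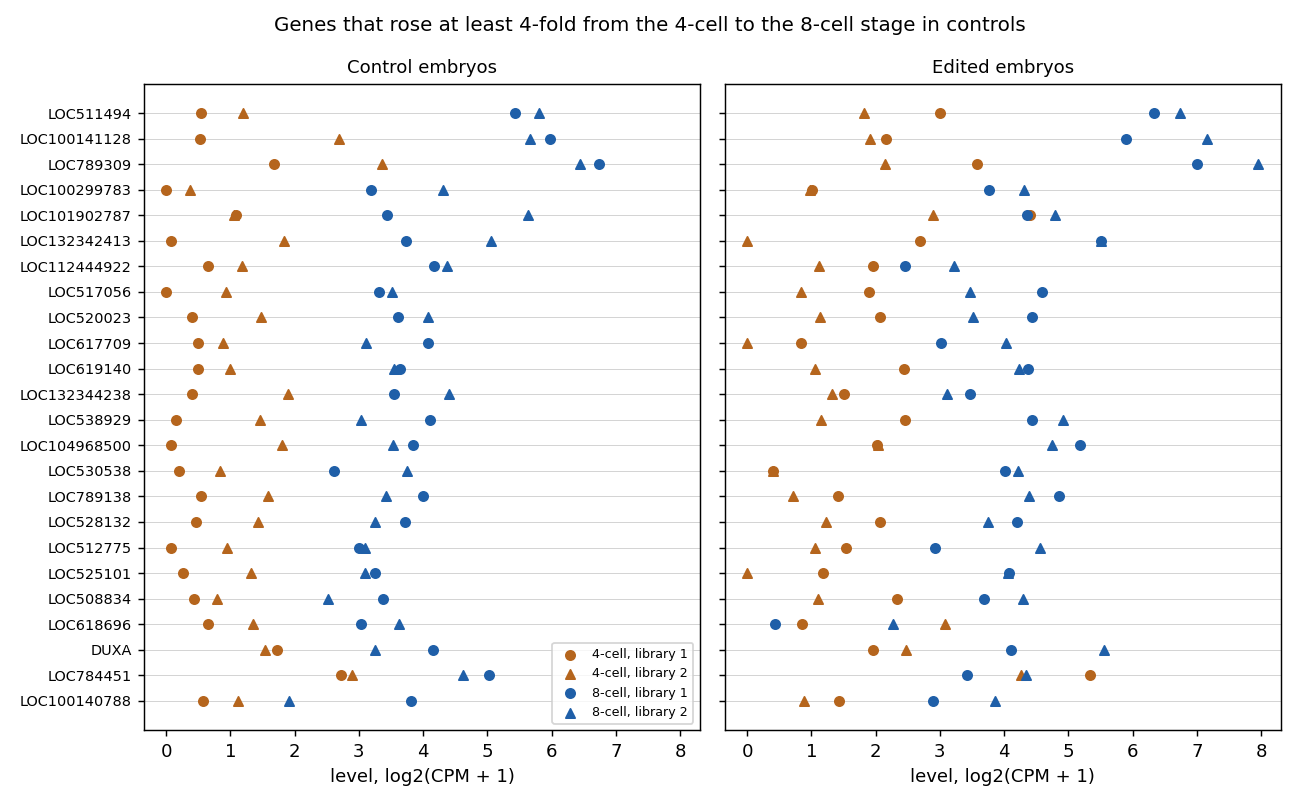
Levels, log2(CPM + 1), of the 24 genes that were called and rose at least 4-fold on this scale in controls, in each control library (left) and edited library (right). Brown marks 4-cell and blue 8-cell libraries, circles the first and triangles the second library. In controls no 4-cell library reaches an 8-cell one, as for 28% of all genes tested. In edited embryos 20 of the 24 genes are called higher, where 1.4% of all genes tested are.

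The stage change of these genes in edited embryos comes from other libraries than the change in controls, although the spread behind the calls in either condition was estimated over all 8 libraries. In edited embryos 20 of the 24 genes (83.3%) were called higher at the 8-cell stage, where 1.4% of all genes tested were, and none was called lower. Their sum was 129 and 61.7 CPM at the 4-cell and 611 and 898 CPM at the 8-cell stage of edited embryos. LOC511494 stood at 6.9996 and 2.52 CPM and then at 79.4 and 105 CPM, a log2 fold change of 4.12 (limma adjusted p = 0.000257). LOC530538 stood at 0.318 and 0.322 CPM and then at 15.1 and 17.6 CPM (3.71, limma adjusted p = 0.000542). The median change of the 24 was 2.79 in control and 2.64 in edited embryos.

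The 4 genes not called in edited embryos were LOC101902787, LOC112444922, LOC618696 and LOC784451. The stage change itself differed between edited and control embryos for 1 of the 24, LOC784451 (limma adjusted p = 0.0206). It stood at 5.56 and 6.39 CPM and then at 31.7 and 23.6 CPM in controls, against 39.5 and 18.2 CPM and then 9.68 and 19.2 CPM in edited embryos. For the other 23 the difference missed the threshold, which does not show that they changed alike.

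Fewer of the genes with smaller changes, and of those that fell, were called in both conditions. Of the 144 called genes that rose 2-fold to under 4-fold on log2(CPM + 1), 6 (4.17%) were called higher in edited embryos and 8 lower. Of the 175 that rose less than 2-fold, 2 (1.14%) were called higher and 5 lower. None of the 28 genes that fell at least 4-fold was called lower in edited embryos, and 1 was called higher. Of the 650 that fell 2-fold to under 4-fold, 54 (8.31%) were called lower there and 5 higher. Of the 107 that fell less than 2-fold, 19 (17.8%) were called lower and 2 higher. Among all genes tested 3.65% were called lower in edited embryos. In all, 122 genes were called in both conditions, 10.8% of the control and 19.8% of the edited calls, and 101 of them moved in the same direction. With edgeR 13 of the 24 steep risers were called and with the marker covariate 7. Leaving out the first 4-cell library left 5 called, the first 8-cell library 12, and either other control library 23 or 24.

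**Figure D3:**
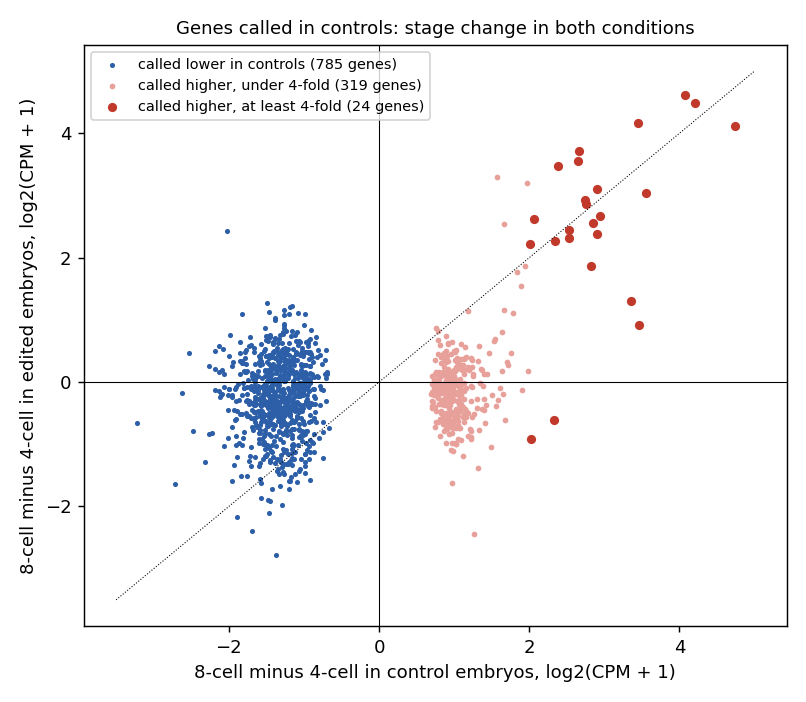
Stage change in edited embryos (vertical axis) against that in controls (horizontal axis), both 8-cell minus 4-cell on log2(CPM + 1), for the 1128 genes called in controls. The dotted line marks equal change; the 24 steep risers (large red points) lie around it except for 4 genes below it, while most other genes scatter around a change of 0 in edited embryos.

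Named genes of embryonic genome activation rose too. The list held 19 transcripts known to be switched on at activation, of which 5 could be tested. Of these 3 (60%) were called higher, against 2.81% of all genes, and none lower. KLF17, a Kruppel-like transcription factor, had at most 3 reads in each 4-cell library and stood at 3.15 and 2.04 CPM at the 8-cell stage, at least 29.5-fold above the 3 reads per library taken as the floor (limma adjusted p = 0.0144). DUXA stood at 2.32 and 1.91 CPM and then at 16.8 and 8.51 CPM, a log2 change of 2.07 (SE 0.47, limma adjusted p = 0.0198). ZSCAN4, a zinc finger gene of the cleavage stages, stood at 0 and 1.64 CPM and then at 7.95 and 3.55 CPM (1.97, SE 0.54, limma adjusted p = 0.0345). All 3 were separated between the stages in controls, as were 28% of all genes tested with the 8-cell libraries higher. Their levels were low throughout.

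In edited embryos DUXA went from 2.89 and 4.53 CPM to 16.3 and 46.1 CPM (limma adjusted p = 0.00753). ZSCAN4 went from 0.289 and 0.468 CPM to 6.72 and 19.8 CPM there (limma adjusted p = 0.00574), so that both were called. KLF17 went from 0.405 and 0.292 CPM to 2.002 and 1.797 CPM there and was not called (limma adjusted p = 0.0915). In controls edgeR called KLF17 (edgeR adjusted p = 0.047) but not DUXA (0.0545) or ZSCAN4 (0.157). The other 2 tested members lay lower at the 8-cell stage without passing the test. EIF1AX, a translation initiation factor gene used as a marker of activation in cattle, stood at 434 and 294 CPM and then at 214 and 282 CPM (-0.54, limma adjusted p = 0.138). HSPA1L, a heat shock gene, had a log2 fold change of -0.76 (limma adjusted p = 0.0659).

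Genes that went from at most 3 reads in each 4-cell library to at least 1 CPM in each 8-cell library numbered 4. Besides KLF17 they were LOC523458, at 2.37 and 3.04 CPM in the 8-cell libraries (at least 30.8-fold above the floor), LOC785853 at 3.43 and 1.89 CPM (at least 30.3-fold) and LOC112442416 at 1.29 and 2.16 CPM (at least 19.6-fold). LOC523458 and LOC785853 were called in controls (limma adjusted p = 0.0137 and 0.0155) and in edited embryos (0.0317 and 0.0197), and LOC112442416 lay under the filter. In the other direction 3 genes met the same limits: BOLA-DRB3, an antigen-presenting class II gene, the serum protease inhibitor gene SERPINA1, and AANAT, the melatonin-making enzyme. They stood at 1.101 and 3.37, at 2.55 and 1.47 and at 2.03 and 1.35 CPM in the 4-cell libraries.

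Of the pluripotency and lineage factors 13 could be tested and none was called, against 9.24% of all genes, with a median log2 fold change of 0.27. POU5F1, which maintains pluripotent cells, stood at 27.2 and 35.3 CPM and then at 35.1 and 40.2 CPM (limma adjusted p = 0.604). KLF4 stood at 2.55 and 2.02 CPM and then at 4.75 and 5.97 CPM (0.95, limma adjusted p = 0.097), with groups that did not overlap. Such groups were found for 59.4% of all genes, 28% with the 8-cell libraries higher and 31.4% with them lower. NANOG was under 1 CPM in each control library and was not tested. SOX2, ARGFX, KDM4E and HSPA1A were not analysed here.

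In CPM, the oocyte factors listed did not fall as a group between these stages. CPM are shares of each library, so the values do not give amounts per embryo. Of 21 oocyte factors tested, 2 (9.52%) were called higher, against 2.81% of all genes, and none lower. A positive log2 fold change was seen for 19, and the median was 0.45 against -0.01 for all genes. OOSP2, an oocyte-secreted protein, stood at 674 and 1189 CPM and then at 2821 and 2242 CPM (1.49, SE 0.26, limma adjusted p = 0.00923). DPPA3, which protects the maternal genome from demethylation, stood at 1016 and 1962 CPM and then at 3953 and 2885 CPM (1.26, SE 0.29, limma adjusted p = 0.0203). In both genes the first 8-cell library was the highest and the first 4-cell library the lowest.

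The growth factors of the oocyte were not called. GDF9 stood at 301 and 636 CPM and then at 659.5 and 494 CPM, so that the stages overlapped (limma adjusted p = 0.388). BMP15 stood at 1519 and 2513 CPM and then at 3297 and 2955 CPM (0.68, limma adjusted p = 0.0921). The zona pellucida gene ZP3, the meiotic kinase gene MOS and the linker histone gene H1-8 had log2 fold changes of 0.01, 0.13 and 0.09, and WEE2, which holds oocytes in meiotic arrest, 0.64 (limma adjusted p = 0.0848). ZAR1, needed for the first cleavages, stood at 80.5 and 54.2 CPM and then at 58.1 and 72.3 CPM.

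Of 10 tested members of the subcortical maternal complex and the NLRP family, which support cleavage, 9 had a positive change (median 0.60). NLRP14 alone (10%) was called higher, against 2.81% of all genes, at 503 and 643 CPM and then at 1120.2 and 1012 CPM (0.90, limma adjusted p = 0.0292). NLRP5 stood at 37.99 and 32.5 CPM and then at 42.8 and 56.5 CPM (limma adjusted p = 0.336).

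The machinery that removes maternal mRNA was represented by 30 tested genes (median 0.40). Of these 3 (10%) were called higher and 1 (3.33%) lower, against 2.81% and 6.43% of all genes. BTG4, the adaptor that brings the CCR4-NOT deadenylase to maternal transcripts, stood at 12015 and 14925 CPM and then at 33193 and 23479 CPM (1.06, SE 0.28, limma adjusted p = 0.0332). CNOT6L, a catalytic subunit of that deadenylase, stood at 52.5 and 102 CPM and then at 179 and 153 CPM (1.16, SE 0.27, limma adjusted p = 0.0203). Its paralog CNOT6, named after its values were seen, had a log2 fold change of 0.94. YTHDF2, which binds m6A and recruits the same complex, fell from 113 and 101 CPM to 56.3 and 55.05 CPM (-0.93, SE 0.24, limma adjusted p = 0.0305). Of 23 tested genes that store maternal mRNA, EIF4ENIF1 alone (4.35%) was called (0.80, limma adjusted p = 0.0496), and the median was 0.34. edgeR called OOSP2 among the genes of this and the preceding groups of maternal factors that are named here (adjusted p = 0.047), but not DPPA3, BTG4, CNOT6L, NLRP14, YTHDF2 or EIF4ENIF1.

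Among the genes called higher that had an approved symbol, groups that did not overlap and a mean of at least 10 CPM over the control libraries, the 12 with the smallest p-values were described. The limit of 10 CPM leaves out weakly expressed genes such as KLF17. ANKRD40CL stood at 21.8 and 32.9 CPM and then at 82.5 and 79.6 CPM (1.56, SE 0.25, limma adjusted p = 0.00838). DEUP1, a scaffold for making many centrioles, stood at 11.3 and 8.06 CPM and then at 33.2 and 44.3 CPM (1.90, SE 0.32, limma adjusted p = 0.0087). The cilia gene SPAG17 stood at 131 and 250.4 CPM and then at 483 and 453 CPM (1.36). OCM, a calcium-binding protein, stood at 41.7 and 39.5 CPM and then at 111 and 116 CPM (1.46), with libraries of a stage close together. SYCP3, of the synaptonemal complex of meiosis, stood at 352 and 395 CPM and then at 758 and 708 CPM (0.97), about 1 log2 unit apart.

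The others were CRYBG1 (1.23), CEP57L1 (1.003), the adhesion gene CHL1 (1.08), MAGI3 (1.37), SYTL2 (0.99) and OCLN. OCLN, of the tight junctions that will later seal the outer cells, stood at 528 and 1075 CPM and then at 2411 and 1641 CPM (1.40). In edited embryos these 12 genes, OOSP2 included, were not called higher, and OOSP2 and CRYBG1 were called lower (-1.04 and -0.92). ANKRD40CL, for one, stood at 145 and 181 CPM at the 4-cell stage of edited embryos, above both stages of the controls, and at 125 and 123 CPM at the 8-cell stage.

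Among the genes lower at the 8-cell stage ACTB, the cytoplasmic beta-actin, had the smallest p-value. It stood at 4826 and 4014 CPM and then at 926 and 1386 CPM (-1.96, SE 0.23, limma adjusted p = 0.00134). It was still called with the marker covariate, as were 6 of the 107 named called genes, all of them LOC genes among the steep rises. UPK1B, a uroplakin of epithelial membranes, stood at 279 and 331 CPM and then at 66.5 and 90.1 CPM (-1.96). The interferon-stimulated gene IFI27 stood at 3934 and 2518 CPM and then at 638 and 966 CPM (-2.002). MMD stood at 710.1 and 716 CPM and then at 234 and 246 CPM (-1.57), and was the 1 gene of these that was also called lower in edited embryos, from 173 and 242 CPM to 54.7 and 56.9 CPM (-1.86, limma adjusted p = 0.000542).

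RBP4, a carrier of retinol, stood at 274 and 177 CPM and then at 55.8 and 64.5 CPM (-1.86). BSG, a chaperone of lactate transporters, stood at 378 and 325 CPM and then at 104 and 141 CPM (-1.53). TMEM54 had the largest fall of the named genes, from 129.9 and 97.6 CPM to 4.81 and 24.4 CPM (-3.23, SE 0.53), and its 8-cell libraries lay far apart. The others were TMED3 (-1.74), BUD23, which methylates ribosomal RNA (-1.50), and the glycolytic enzyme PGAM1 (-1.51). CD81 and TSSC4 had identical values in all 8 libraries (-1.80) and count as 1 measurement. Such identical rows covered 233 tested genes in 105 sets, 24 of them among the called genes. Each gene with a value in this paragraph was lower in every edited library than in any control library. RBP4 stood there at 24.1 and 30.3 CPM and then at 19.1 and 18.2 CPM.

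**Figure D4:**
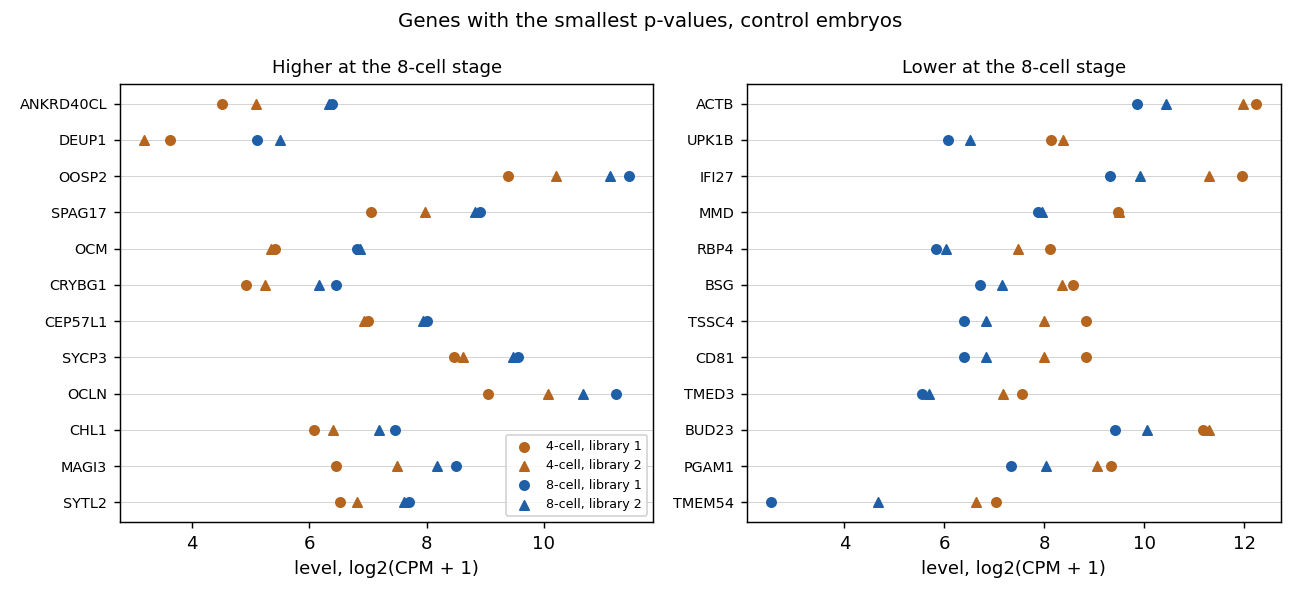
Levels, log2(CPM + 1), in the 4 control libraries of the 12 genes per direction with the smallest p-values among called genes with a symbol, groups that do not overlap and a mean of at least 10 CPM. Brown marks 4-cell and blue 8-cell libraries, circles the first and triangles the second library; the stages do not overlap for any gene, and the second libraries of the stages often lie nearest to each other.

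Among genes of energy metabolism all calls were lower at the 8-cell stage. Of 81 tested subunits of oxidative phosphorylation 19 (23.5%) were called lower and none higher, against 6.43% of all genes called lower, and 77 had a negative change (median -0.80). UQCRFS1, an iron-sulfur subunit of complex III, stood at 559 and 402 CPM and then at 150.4 and 175 CPM (-1.54, SE 0.28, limma adjusted p = 0.0104). SDHB, of complex II, stood at 529 and 395 CPM and then at 182 and 237 CPM (-1.13). Of 19 glycolytic enzymes 8 (42.1%) were called lower and none higher (median -0.89). ALDOA stood at 546 and 463 CPM and then at 85.5 and 239 CPM (-1.81), and ENO1 at 2314 and 1994 CPM and then at 420.3 and 1110.2 CPM (-1.65).

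In ALDOA and ENO1 the second 8-cell library was more than 2-fold above the first. The summed cumulus and granulosa markers stood at 660 and 969 CPM in these libraries, and of the 21 markers tested 16 were higher in the second and 5, STAR and CD44 among them, in the first. With edgeR none of the oxidative phosphorylation subunits and 1 of the glycolytic enzymes was called. With the marker covariate no member of the metabolic groups was called, and the median change was -0.43 for oxidative phosphorylation and -0.54 for glycolysis. In edited embryos the medians were -0.44 and -0.01. There 14 of the oxidative phosphorylation subunits and none of the glycolytic enzymes were called lower.

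Ribosomal protein transcripts had mostly negative changes and few single calls. Of 77 cytosolic ribosomal proteins 76 had a negative change (median -0.65). Of the 77, 6 (7.79%) were called lower, against 6.43% of all genes, and none higher. RPL3 stood at 577 and 639 CPM and then at 248 and 335 CPM (-1.07, limma adjusted p = 0.0198), RPL13 at 257 and 208 CPM and then at 76.97 and 129 CPM, and RPL15 at 698 and 506 CPM and then at 239 and 362 CPM. The count of 6 depended on the libraries: it was 33 without the second 4-cell library, 27 without the second 8-cell library, and 0 without either first library. In edited embryos the median was -0.60, and 23 were called lower.

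Mitochondrial ribosomal proteins had a median change of -0.51, with 12 of 75 (16%) called lower, against 6.43% of all genes, and none higher. MRPS34 stood at 80.3 and 50.5 CPM and then at 13.02 and 25.1 CPM (-1.76, limma adjusted p = 0.0151). In edited embryos their median was 0.00, with 2 called higher and 3 lower. Of 52 translation factors 5 (9.62%) were called lower and 1 (1.92%) higher, against 6.43% and 2.81% of all genes (median -0.12). EIF5A, which relieves stalled ribosomes, fell from 279.6 and 152 CPM to 58.6 and 88.4 CPM, while EIF5B, which joins the ribosomal subunits, rose from 719 and 789 CPM to 1544 and 1338 CPM. Among 107 ribosome biogenesis factors 3 (2.8%) were called higher and 3 (2.8%) lower, against 2.81% and 6.43% of all genes. UTP23 rose (0.98), and POLR1C, a subunit of RNA polymerase I, and FBL, the nucleolar methyltransferase, fell (-1.46 and -1.07).

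Of 52 genes of the actin cytoskeleton 20 (38.5%) were called lower and none higher (median -0.74), against 6.43% and 2.81% of all genes. ACTG1 stood at 2338 and 2179 CPM and then at 788 and 959 CPM (-1.38), and the actin-severing protein CFL1 at 824 and 619 CPM and then at 246 and 336 CPM (-1.31). Of 40 interferon-stimulated genes 10 (25%) were called lower, against the same 6.43% of all genes, and none higher (median -0.59). OAS1Y, an antiviral enzyme, stood at 1199 and 1052 CPM and then at 414 and 534 CPM (-1.25), and the transcription factor gene IRF9 at 61.6 and 45.2 CPM and then at 12.3 and 20.5 CPM (-1.67). Without either first library ACTB was the 1 actin gene and IFI27 the 1 interferon-stimulated gene called.

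Of 45 proteasome subunits 11 (24.4%) were called lower and none higher (median -0.57). PSMC3 stood at 477 and 389 CPM and then at 166 and 211 CPM (-1.20). The testis-type subunit PSMA8 lay at the other end of the list with a log2 fold change of 1.26 (limma adjusted p = 0.153). Of 41 heat shock proteins and chaperones 6 (14.6%) were called lower, against 6.43% of all genes, and none higher (median -0.14). CALR (-0.99), HSPB1 (-1.44) and CCT6A (-0.92) were among those called. With edgeR 4 actin, 2 interferon-stimulated, 2 proteasome and no heat shock genes were called lower. The summed cumulus and granulosa markers given above were also smaller in the 8-cell libraries. Of the 21 tested, 15 had a negative and 6 a positive change (median -0.47), from -2.47 for FST to 1.13 for HAS2, with STAR at -0.24 and GREM1 at 0.71, neither of them called.

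**Figure D5:**
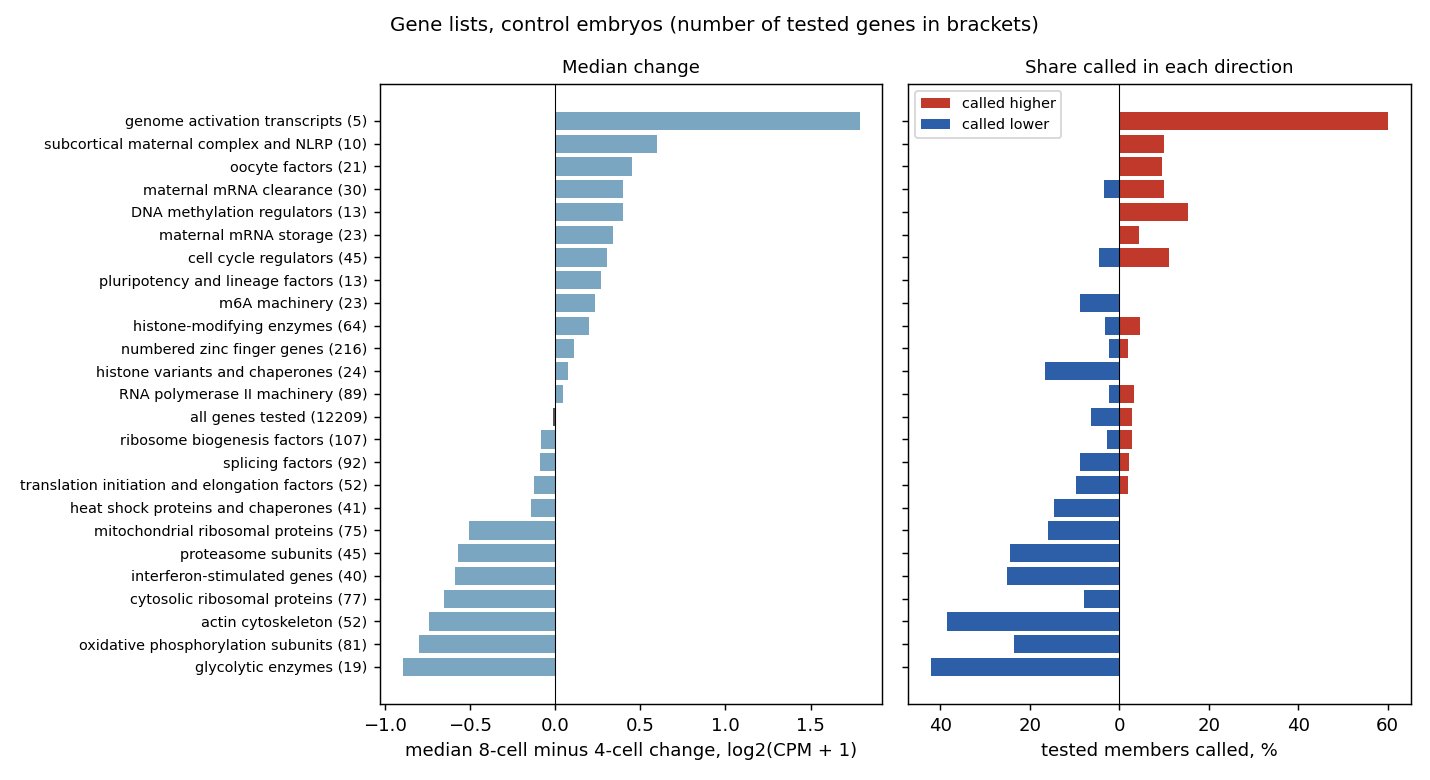
Gene groups in controls, ordered by the median stage change of their tested members (left, log2(CPM + 1)), with the share of members called higher (red, to the right) and lower (blue, to the left). The genome activation transcripts have the highest median (5 genes tested) and glycolytic enzymes the lowest; the dark bar is all genes tested.

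Of 45 tested cell cycle regulators 5 (11.1%) were called higher, against 2.81% of all genes, and 2 (4.44%) lower, against 6.43% (median 0.31). CDC25C, the phosphatase that triggers mitosis, rose from 194 and 269 CPM to 512 and 423 CPM (1.02, limma adjusted p = 0.0182). The others called higher, named after their values were seen, were GMNN (1.003), PTTG1 (0.95), CCNB3 (0.88) and SPDYA (0.76). The genes called lower were CCND2, a D-type cyclin of the G1 phase, at 74.5 and 66.9 CPM and then at 14.8 and 22.7 CPM (-1.89), and its partner kinase CDK4, at 73.5 and 74.2 CPM and then at 25.2 and 28.2 CPM (-1.44). The mitotic cyclin gene CCNB1 stood at 1569 and 1646 CPM and then at 2087 and 1602 CPM and was not called (limma adjusted p = 0.601).

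Chromatin genes gave calls in both directions. Of 64 histone-modifying enzymes 3 (4.69%) were called higher and 2 (3.12%) lower, against 2.81% and 6.43% of all genes (median 0.20). KDM4C, a demethylase of histone H3 lysine 9, rose from 28.5 and 68.5 CPM to 105 and 119 CPM (1.32), KMT5B rose by 0.85 and the deacetylase HDAC3 had a log2 fold change of -0.95. Of 24 histone variants and chaperones 4 (16.7%) were called lower and none higher. MACROH2A2 fell from 5.19 and 4.28 CPM to 0.172 and 0.857 CPM (-1.95) and H2AZ1 from 662 and 854 CPM to 368 and 452 CPM (-0.88). Among 13 DNA methylation regulators DPPA3 and UHRF2 (15.4%) were called higher (0.88 for UHRF2), against 2.81% of all genes, and none lower. DNMT1, which copies methylation at replication, stood at 562 and 527 CPM and then at 405 and 412 CPM (limma adjusted p = 0.191), and TET3 at 3.62 and 3.34 CPM and then at 4.18 and 6.74 CPM (0.389).

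The m6A machinery, the subject of the wider study, gave 2 calls. m6A is a methyl mark on adenosines of mRNA. Of 23 genes tested 2 (8.7%) were called lower, against 6.43% of all genes, and none higher (median 0.23). They were YTHDF2 and HNRNPA2B1, a nuclear RNA-binding protein linked to m6A, which fell from 414 and 368 CPM to 215 and 269 CPM (-0.69, limma adjusted p = 0.0499). The writer subunits METTL3 and METTL14 stood at 21.8 and 29.2 CPM and 63.7 and 80.6 CPM at the 4-cell stage, and at 22.1 and 20.7 CPM and 86.1 and 82.9 CPM at the 8-cell stage (limma adjusted p = 0.652 and 0.536). The demethylase genes FTO and ALKBH5 had log2 fold changes of -0.51 and 0.36, neither called.

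Genes of transcription and RNA processing gave few calls. Of 89 genes of the RNA polymerase II machinery 3 (3.37%) were called higher and 2 (2.25%) lower (median 0.04). Over all genes these shares were 2.81% and 6.43%. TBPL1, a TBP-related factor, rose from 1013 and 814 CPM to 1504 and 1579 CPM, while the elongation factor gene NELFE (-1.33) and the polymerase subunit gene POLR2E (-1.07) fell. Of 92 splicing factors 2 (2.17%) were called higher and 8 (8.7%) lower (median -0.09). HNRNPK fell from 338 and 335 CPM to 132 and 146 CPM (-1.27), and SNRPB and SNRPN fell as well (-1.15 and -1.41). Of 216 numbered zinc finger genes 4 (1.85%) were called higher, ZNF106 among them (0.94), and 5 (2.31%) lower, among them ZNF385B (-1.07) and ZNF140 (-1.50). LIN28A, which blocks let-7 processing, stood at 4.23 and 5.60 CPM and then at 6.52 and 7.07 CPM (limma adjusted p = 0.477).

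The stage change itself differed between edited and control embryos for 481 genes (3.94% of those tested), 1.96% with a higher and 1.98% with a lower change in edited embryos. In edited embryos 617 genes (5.05%) were called between the stages, 171 higher and 446 lower. Both stage changes enter this difference, and the controls do so with the libraries compared above. For ACTB the control change was -1.96 and the edited change -0.21, with 445 and 451 CPM and then 353 and 426 CPM in the edited libraries. For OOSP2 the changes were 1.49 and -1.04, with 6669 and 6196 CPM and then 3263 and 3012 CPM in edited embryos. For CNOT6L they were 1.16 and -0.47, with 337 and 318 CPM and then 239 and 235 CPM. In these 3 genes both 8-cell control libraries lay between the 4-cell control libraries and the edited 4-cell libraries.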

How the data were processed

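Polyadenylated RNA of 5 embryos per library was amplified as full-length cDNA and tagmented, per the labels' protocols. Trim Galore 0.6.7, HISAT2 2.2.1 and featureCounts 2.0.1 are named, with no role, in the submitters' processing notes. The genome build, annotation and strand setting are not given in the sources used here. The deposited values are CPM. In them 100% of the positive values were whole multiples, within 0.05 reads, of 1 read's worth in each library, and these recovered reads were used for edgeR 4.0.16 and DESeq2 1.42.0. Columns of the table that match no sample (4) were not used. At 33527531 to 35122409 reads per library counting error is small for all but the weakest genes; reads of amplified cDNA are not independent molecules, so floors of 3 reads cover counting error only.

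CPM plus a pseudocount of 1 was taken to log2 and fitted with limma 3.58.1 (R 4.3.3), with an intensity trend, 1 mean for each of the 4 groups and all 8 libraries, over genes whose mean in the 4 control libraries reached 1 CPM. An exact test of 2 against 2 libraries cannot go below p = 0.333. The limma fit was tested on simulated data. Those data held no shift of a library shared over genes, so they do not cover the dependence on single libraries seen here. Of the symbols 16571 matched RefSeq (ARS-UCD2.0), which was used for gene type and neighbours only. Members and lists were chosen with earlier results of these data known. Named were 28 landmark genes, the 12 called genes per direction with the smallest p-values (a symbol, a mean of at least 10 CPM, groups that do not overlap), up to 3 called genes per list, genes at 3 reads or fewer in 1 stage only, and marker genes by level. Alternatives varied the test, filter, pseudocount, scaling, replicate block, marker covariate and libraries. Same-numbered control libraries had deviations that correlated at -0.30, so numbers were not taken to pair libraries. Promoter motifs were not searched.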

Additional observations from a re-analysis of the deposited data

Results flagged for a closer look

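The stage change differed between edited and control embryos, by the test of the difference itself, for 481 genes and, among the named genes, for 30. Each value below is the edited minus the control change on the log2 scale, called by limma at an adjusted p under 0.05. Genes that were called higher at the 8-cell stage in controls and had a lower change in edited embryos were LOC784451 (-2.95), OOSP2 (-2.53), CRYBG1 (-2.15), UTP23 (-2.09), DEUP1 (-2.02), ANKRD40CL (-1.95), CNOT6L (-1.63), CNOT6 (-1.54), UHRF2 (-1.44), ZNF106 (-1.43), EIF5B (-1.35), CEP57L1 (-1.18) and SYCP3 (-1.18). Genes that were called lower in controls and had a higher change in edited embryos were IFI27 (2.42), MACROH2A2 (2.21), BSG (2.03), EIF5A (1.93), MRPL49 (1.81), TMED3 (1.78), ACTB (1.75), POLR2E (1.73), CD81 and TSSC4 (1.70, identical values), PGAM1 (1.70), PSMC3 (1.63), CFL1 (1.51), EIF2B2 (1.51), NELFE (1.39), BUD23 (1.32) and SDHB (1.27). Of these, 3 genes, OOSP2, CRYBG1 and UTP23, were called in both conditions in opposite directions. UTP23 went from 205 and 181 CPM to 383 and 379 CPM in controls and from 602 and 464 CPM to 255 and 233 CPM in edited embryos.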

How the results depend on the processing

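The count of genes called between the stages in controls (1128) was 86 with edgeR, 211 without limma's trend, 173 with the 4 control libraries alone, 0 without the low-value filter, 749 with a pseudocount of 0.25 CPM and 14 with the marker covariate, and ranged from 13 to 2111 as each control library was left out. Genes called higher (343) numbered 25, 37, 28 and 0 under the first 4 of these, 195 with median-of-ratios factors, 699 with quantile normalization and 12 with the covariate, and 7 to 1091 with a library left out. Genes called lower (785) numbered 61, 174, 145 and 0, then 1239 with DESeq2, 512 and 1186 with pseudocounts of 0.25 and 5 CPM and 2 with the covariate, and 6 to 1020 with a library left out. The difference between conditions (481) gave 18 with edgeR, 1065 with DESeq2, 0 without the trend (2596 at an unadjusted p under 0.05), 0 without the filter (2987), 39 with the covariate and 17 to 1346 with a library left out. The edited stage change (617) gave 324 with edgeR, 1286 with DESeq2, 104 without the trend, 5 without the filter and 289 with the covariate.

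With the replicate block 1011 genes were called in controls (280 higher and 731 lower) and 391 for the difference. With the crossed replicate block, added after the data were seen, these were 1715 (565 higher, 1150 lower) and 845. A lone library left in a group is assumed to vary like the other groups. Of the 107 named called genes 41 were called with edgeR and 50 with the 4 control libraries; none changed direction in any alternative.

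Uncalled genes near 0 changed sign. ZP3 was at -0.0095 with edgeR, -0.11 with DESeq2 and -0.050 with median-of-ratios factors. ZAR1 was at 0.0032 with TMM, 0.042 after quantile normalization and 0.078 with the covariate, and with the covariate CCNB1 and H1-8 were at -0.10 and POU5F1 at -0.051. With each control library left out in turn, GDF9 ranged from -0.16 to 0.92, ZP3 from -0.38 to 0.40, MOS from -0.30 to 0.56, CCNB1 from -0.0052 to 0.38, ZAR1 from -0.31 to 0.25 and H1-8 from -0.063 to 0.24. Among group medians, that of the RNA polymerase II machinery was -0.02 with median-of-ratios factors and with DESeq2, that of ribosome biogenesis 0.03 after quantile normalization, and that of genome activation transcripts -0.65 at a filter of 10 CPM, which KLF17, DUXA and ZSCAN4 did not pass. The causes were not tested. The median over all genes stayed between -0.07 and 0.07.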

Other observations

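Of 491 tested genes with a LOC identifier, 39 were called higher and 13 lower at the 8-cell stage in controls. Over all genes tested 2.81% were called higher and 6.43% lower. One more riser outside the steepest set, OR52P2, named after its values were seen, belongs to the olfactory receptor family and was among the 17 genes called higher by limma over 8 and over 4 libraries, edgeR and DESeq2, with a log2 fold change of 1.98.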
